A study of Rattus norvegicus with 12 samples.

Results

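The genes described here encode the proteins of the cytosolic ribosome. The deposited tables list genes by RGD (Rat Genome Database) identifier, and members were taken by symbol, as every row whose symbol begins with Rpl or Rps and a digit, or is Rplp0 to Rplp2 or Rpsa. The Rps6k kinases, Rps19bp1 (a binding protein and not part of the ribosome), rows annotated as pseudogenes and rows with a pseudogene symbol (-ps) were left out, a few of the last of these being annotated as protein-coding. This gave 99 members of the 17423 genes in each table. Of these, 51 carry the plain symbol of a ribosomal protein (22 of the small 40S and 29 of the large 60S subunit) and are called genes below. The other 48 carry the letter l after such a symbol and are called copies. Most copies lay in short stretches, with 39 of 48 loci under 1000 bp, while all 51 genes spanned at least 1106 bp. The gene table used for names holds 77 plain symbols, and the 26 that were not found by this naming are not analysed here. Only Rps10 and Rpl30 among the genes were named directly, and the other 49 were named by the order of neighbouring genes, so that such a name says which gene lies at the row's place. The length of the locus equals that in the gene table, within 1 bp, for 17 of the 51 genes and 29 of the 99 members.

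RNA-seq was carried out on the 1-mm cord segment at the injury epicenter of 12 female rats. All were contused with 200 kdyn at 16 to 18 weeks of age. AN (athymic nude, Hsd:RH-rnu/rnu) rats lack a functional thymus and so have few mature T cells, and SD (Sprague-Dawley, Hsd:SD) rats have an intact immune system. Each strain gave 3 rats at 1 week after injury, the acute phase, and 3 other rats at 8 weeks, the chronic phase. The samples include no uninjured group. Each table gives 1 FPKM (fragments scaled to the length of the transcript and to the fragments mapped in the library) for a group of 3 rats, so these values carry no spread between rats and no read counts, no test was run on them, and every value below is the authors' value for the group. The fold change (FC) is the AN over the SD FPKM, and a gene counted as past 2-fold only with both values above 0 and a mean of at least 1 FPKM. In tissue RNA, more cells of a type and more RNA per cell cannot be told apart.

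A ribosome holds a single molecule of most of its proteins, and the cell adjusts their supply together. Many of the mRNAs begin with a run of pyrimidines at the very start of the transcript (the 5′ TOP tract), through which the growth-sensing kinase mTOR and the RNA-binding protein Larp1 control their translation. Cells that divide or grow carry more ribosomes, and ribosomal protein genes also have many intronless copies scattered through mammalian genomes, most of which are not known to make protein.

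The start-site windows below are shown because this tract was found in most of the genes that could be searched and the symbol rule did not use it. RefSeq promoter windows (GRCr8, 250 bases before to 50 after the start) were at hand for 42 of the 51 genes. A C followed by at least 4 further C or T letters, starting within 5 bases of the annotated start on the gene's own strand, was present in 28 of 42 genes (66.7%) and in 17.0% of all 33469 windows. The letters CTTTCC, looked for on the same strand within 20 bases of the start and often part of the same tract, were present in 12 of 42 genes (28.6%) and 1.73% of all windows. CCGGAAG on either strand was found in 11 genes (26.2%) against 8.75% of all windows. AAGATGGC on either strand was found in 2 (4.76% against 3.17%), and TATAAA between 40 and 10 bases before the start in 1 (2.38% against 1.48%). The examples run from 30 bases before to 20 bases after the start, with the tract in capitals, and all are from GRCr8. They are Rps10 (chr20:5700725-5700774, minus strand), Rps15 (chr7:10068096-10068145, minus), Rpl23 (chr10:83272165-83272214, minus), Rpl31 (chr9:49143081-49143130, plus), Rplp1 (chr8:71290853-71290902, minus) and Rpl10a (chr20:6390503-6390552, plus).
Rps10: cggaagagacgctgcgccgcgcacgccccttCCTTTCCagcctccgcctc
Rps15: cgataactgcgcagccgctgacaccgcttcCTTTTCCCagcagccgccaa
Rpl23: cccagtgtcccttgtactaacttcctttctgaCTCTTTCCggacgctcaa
Rpl31: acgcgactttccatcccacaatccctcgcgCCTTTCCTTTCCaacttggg
Rplp1: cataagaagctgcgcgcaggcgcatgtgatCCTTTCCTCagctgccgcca
Rpl10a: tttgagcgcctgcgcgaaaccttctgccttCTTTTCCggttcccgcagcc
The capitals mark the fitting stretch nearest the annotated start, and in Rps15, Rpl31, Rplp1 and Rpl10a they begin exactly there. In Rps10, Rps15, Rplp1 and Rpl10a further C or T letters directly precede them, so the whole run begins earlier. The strain ratios, described further on as log2FC (log2 of the AN over the SD level), had a median of 0.33 over 26 genes with it and 0.25 over 13 genes without it acutely, and 0.09 (25 genes) and 0.07 (13 genes) chronically.

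Levels ranged widely although most of the proteins are needed in equal numbers. The median over the 51 genes was 171 (SD) and 218 FPKM (AN) acutely and 152 (SD) and 164 (AN) chronically. In every group 29 genes were above 100 FPKM, and 11 genes were below 10 FPKM in every group. The most abundant gene was Rps15, a 40S protein, at 1466 (SD) and 1563 FPKM (AN) acutely and at 1280 (SD) and 1221 (AN) chronically. Rps6, the 40S protein that the Rps6k kinases phosphorylate, was at 836, 1023, 818 and 842 FPKM in the same order of groups. Rpl23, a 60S protein, was at 796, 1001, 765 and 794 FPKM. In each of these genes the highest group was less than 1.5-fold above the lowest.

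**Figure D1:**
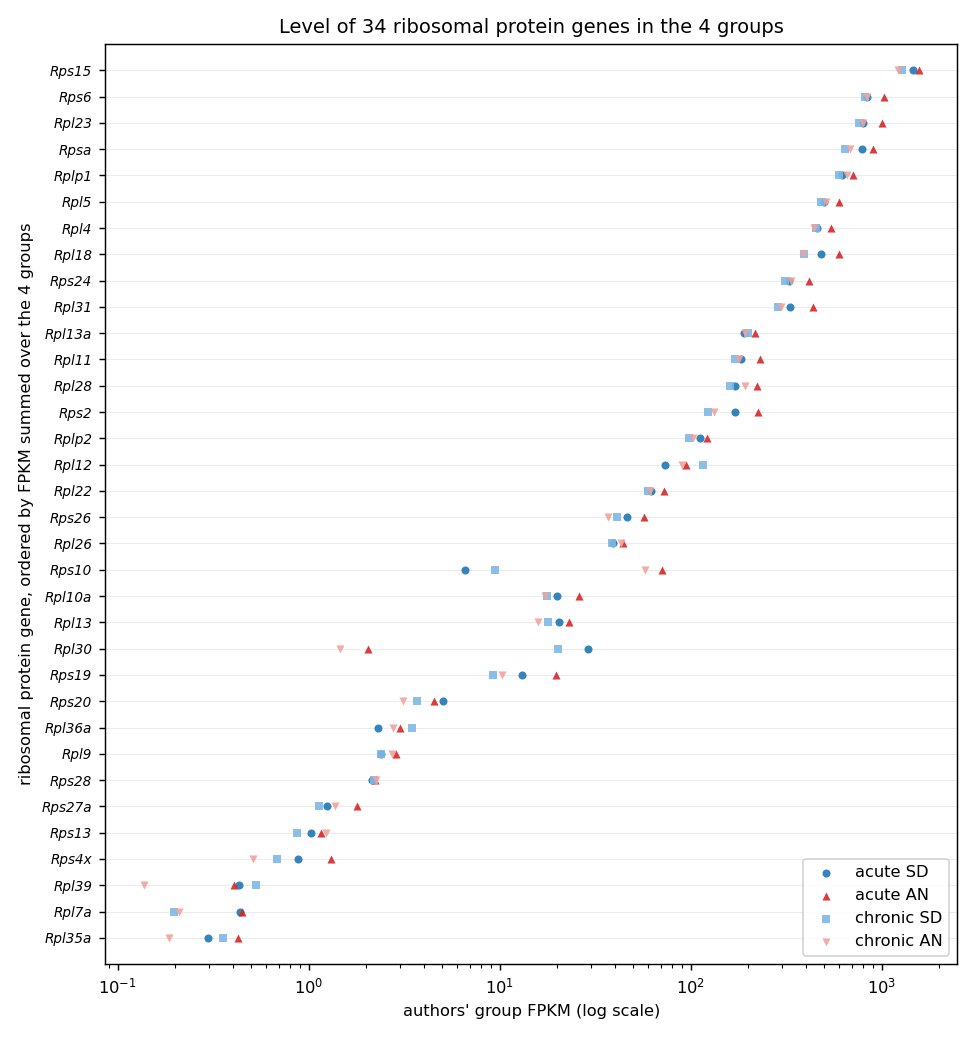
FPKM (log axis) of 34 of the ribosomal protein genes named in the text, in the 4 groups, 1 symbol for each group value of 3 rats, with genes ordered by their sum. The 4 symbols lie close together for most genes, with acute AN the highest for most, while Rps10 is far to the right in both AN groups and Rpl30 far to the left.

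At the other end, the gene loci of Rpl35a, Rpl7a and Rpl39 were below 1 FPKM in every group. Rpl35a was at 0.298 (SD) and 0.425 FPKM (AN) acutely and at 0.355 (SD) and 0.186 (AN) chronically. Rpl7a was at 0.436, 0.450, 0.198 and 0.210 FPKM, and Rpl39, one of the smallest ribosomal proteins, at 0.433, 0.405, 0.529 and 0.137. Rps13 was at 1.03, 1.17, 0.866 and 1.23 FPKM, Rps27a (made as a fusion with ubiquitin) between 1.13 and 1.80, Rps28 at 2.15, 2.22, 2.20 and 2.25, and Rpl9 at 2.40, 2.88, 2.39 and 2.75. How the authors' counting divided reads among near-identical copies is not stated, so a level at 1 locus may be too low or too high for the protein. Copies named by position also carry an identifier that the authors may have meant for the parent gene.

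In the acute phase nearly all ribosomal protein genes were slightly higher in AN rats. Of the 48 genes that passed the filter 46 had the higher FPKM in AN rats, against 50.6% of all 11068 genes that passed it. The median log2FC of these 48 genes was 0.29 (a ratio of 1.22, with the middle 50% of genes from 0.20 to 0.37), and that of all genes was 0.01. In all 64 of 69 members that passed were higher in AN rats. Abundant genes in general leaned the same way, since the 1035 genes with a mean of at least 100 FPKM had a median log2FC of 0.14, with 68.4% higher in AN rats. The median was 0.31 for the 22 genes of the 40S and 0.26 for the 26 genes of the 60S subunit. Rpl30 and Rps20 were the only 2 of the 48 genes with the lower value in AN rats, and Rps20 differed little (5.07 FPKM in SD and 4.53 in AN).

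The shift was small for single genes, and 6 members, Rps10, Rps19 and the copies Rps12l3, Rpl29l4 and Rpl39l1 among them, were at least 1.5-fold higher in AN rats, against 7.37% of all genes, so 6 of 69 members was near the background. Apart from Rps10 and Rpl30, the log2FC of the other 46 genes lay between -0.16 (Rps20) and 0.59 (Rps19). Rps19, a 40S assembly protein known for its mutation in Diamond-Blackfan anemia, was at 13.0 (SD) and 19.6 FPKM (AN). Together the 51 genes took 2.45% of all summed FPKM in acute SD rats and 2.75% in acute AN rats. With all 99 members the shares were 2.92% and 3.29%. Whether shifts of this size exceed the spread between rats was not tested, since a single FPKM per group was used and the authors' own test columns were not.

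At the chronic time point the median difference between strains was smaller. Of 47 genes that passed the filter 36 were higher in AN rats, against 51.2% of all 11198 genes. The median log2FC was 0.07 (a ratio of 1.05, middle 50% from 0.00 to 0.15), beside 0.01 over all genes and 0.00 over the 1004 genes of at least 100 FPKM. The genes lower in AN rats at this time were Rps15, Rps20, Rps26, Rpl4, Rpl10a, Rpl12, Rpl13, Rpl13a, Rpl18, Rpl30 and Rpl36a. The summed share of the 51 genes was 2.24% in both SD and AN rats. Per gene, the acute log2FC was above the chronic one for 45 of 47 genes, with a median difference of 0.20, against 45.3% of 10858 genes and a median of -0.04 over all genes. Other genes leaned the same way: the median difference was 0.09 over 871 genes of at least 100 FPKM, with 61.9% above 0, and 0.24 over the mitochondrial ribosomal proteins, with 38 of 41 above 0, so the latter were not behind the ribosomal protein genes in this. Rpl12, a 60S protein of the stalk base, changed sides: it was at 73.6 (SD) and 94.2 FPKM (AN) acutely and at 117 and 90.4 chronically. Rps13 was the only gene other than Rpl30 with a chronic log2FC above the acute one, at 1.03 and 1.17 FPKM in the acute and 0.866 and 1.23 in the chronic phase, which is close to the filter.

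The values of some further genes, chosen for their known roles after the values were seen, were as follows. Rpl5, which carries the 5S rRNA together with Rpl11 and binds Mdm2 when ribosome assembly fails, was at 502 (SD) and 597 FPKM (AN) acutely and at 479 and 511 chronically. Rpl11 was at 184 and 230 FPKM acutely and at 171 and 179 chronically. Both genes were higher in AN rats in each phase, by a smaller ratio chronically. Rplp1, of the acidic stalk that recruits elongation factors, was at 617 and 710 FPKM acutely and at 596 and 656 chronically. Its partner Rplp2 was at 112 and 122 FPKM acutely and at 98.3 and 103 chronically. The acute log2FC was 0.20 and 0.12 for these stalk genes, below the median of all ribosomal protein genes. Rpsa, which is also known as a laminin receptor, was at 787 and 906 FPKM acutely and at 640 and 680 chronically.

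Rps24 and Rps26 are 40S proteins whose human genes are mutated in Diamond-Blackfan anemia, like Rps19. Rps24 was at 329 (SD) and 415 FPKM (AN) acutely and at 311 and 335 chronically. Rps26 was at 46.7 and 56.9 FPKM acutely and at 41.0 and 36.7 chronically. Both were higher in AN rats acutely, and Rps26 was lower in them chronically. Rpl13a, whose phosphorylated form is known to silence inflammatory mRNAs, also changed sides, at 191 and 218 FPKM acutely and 199 and 193 chronically. Among genes over 100 FPKM in every group, Rps2, Rpl28 and Rpl31 had the largest acute log2FC (0.40, 0.39 and 0.38). Rps2 was at 171 and 226 FPKM acutely, Rpl28 at 171 and 224, and Rpl31 at 333 and 435.

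**Figure D2:**
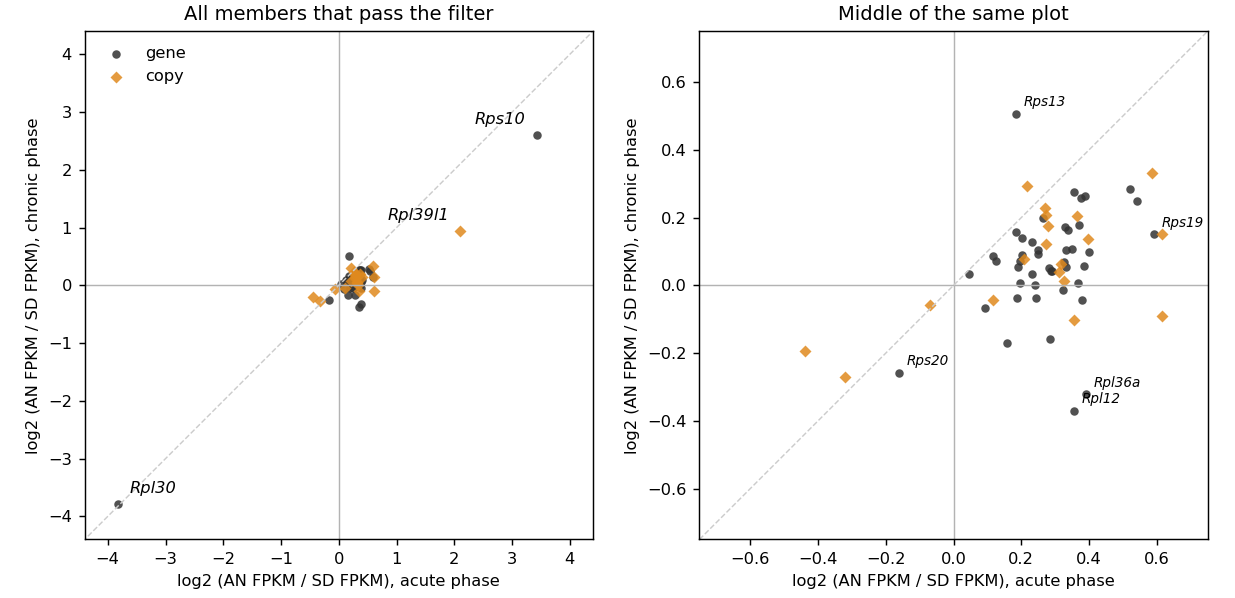
Log2FC of AN against SD rats, acute on the horizontal and chronic on the vertical axis, for the 67 members that passed the filter in both phases, in full on the left and the middle of the same plot on the right. Rps10 and Rpl30 lie far out in opposite corners, Rpl30 near the dashed line of equal ratios and Rps10 below it, and most others lie right of zero and below that line.

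2 genes stood far from the rest, in opposite directions and in both phases. Rps10, a 40S protein that is tagged with ubiquitin when ribosomes collide, was at 6.57 (SD) and 70.5 FPKM (AN) acutely and at 9.46 (SD) and 57.4 (AN) chronically. Both AN values were above both SD values, and within phases they were 10.7-fold (acute, log2FC 3.42) and 6.06-fold (chronic, log2FC 2.60) higher. Among all genes that passed the filter it had the fourth highest log2FC of 11068 in the acute phase and rank 25 of 11198 in the chronic phase. Rpl30, a 60S protein that binds its own transcript in yeast, was at 28.9 (SD) and 2.05 FPKM (AN) acutely and at 20.3 (SD) and 1.47 (AN) chronically. Both of its SD values were above both AN values. It was 14.1-fold lower in AN rats acutely (log2FC -3.82) and 13.8-fold lower chronically (log2FC -3.79), and its rank from the lowest was 51 and 9. With a pseudocount of 1 its log2FC was -3.29 and -3.11. In both phases the AN and SD values of these 2 genes differed by far more than those of any other of the 51 genes that passed the filter. The rats of the 2 phases were different animals, so each phase is a separate comparison, but each rests on 1 value per group.

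Few members passed 2-fold. In the acute phase 2 of 69 members that passed the filter were at least 2-fold higher in AN rats (Rps10 and the copy Rpl39l1), where 1.89% of all genes were. Only Rpl30 was at least 2-fold lower, where 10.1% of all genes were. In the chronic phase Rps10 was the only one of 67 members that was 2-fold higher and Rpl30 the only one that was 2-fold lower, against 2.05% and 5.55% of all genes. The same 2 genes passed 2-fold the same way in both phases, against 0.580% of 10858 genes higher and 4.22% lower in AN rats in both phases. The nearest members above the threshold were Rpl39l1 acutely (4.30-fold, log2FC 2.10, or 1.15 with a pseudocount of 1) and Rps10 chronically (6.06-fold). At 1.5-fold, 2 of 67 members (Rps10 and Rpl39l1) were higher in AN rats chronically, against 6.01% of all genes. The nearest below 2-fold were Rpl29l4 in the acute phase, at 2.25 and 3.45 FPKM, and Rpl39l1 in the chronic phase, at 0.927 and 1.79.

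The loci of both genes were examined on RN4. Rps10 (RGD:621024) lies at chr20:5849327-5853893, a stretch of 4567 bp, and no other row has this locus. Its nearest rows that passed the filter did not share its difference: Nudt3, 7693 bp away, had a log2FC of -0.44 acutely and -0.36 chronically. On the other side Pacsin1, 21556 bp away and a gene of neurons, had -0.76 and -1.53. Rpl30 (RGD:621201) lies at chr7:69886763-69915564. This locus spans 28802 bp, against 3136 bp for the gene in GRCr8, and a second row named Erich5 has the same locus, so overlapping genes may share reads there. Of its neighbours, Matn2 (a matrix protein, 6039 bp away) had a log2FC of -0.75 and 0.47, and Rida (14899 bp away) had -1.10 and -0.86. Over the 12 nearest rows that passed the filter, 3 on each side of each gene, the log2FC lay between -1.53 (Pacsin1, chronic) and 0.47 (Matn2, chronic).

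Most of the FPKM listed for both proteins was at a copy elsewhere in the genome. Rps10l1, a pseudogene of 498 bp on chromosome 6, was at 344 (SD) and 415 FPKM (AN) acutely and at 319 (SD) and 319 (AN) chronically. Of the FPKM summed over gene and named copies, the Rps10 locus held 1.87% (SD) and 14.5% (AN) acutely, and 2.88% and 15.3% chronically. Rpl30l2, a copy of 462 bp on chromosome 10, had the highest FPKM of all 99 members by the sum over groups, at 1414 (SD) and 1711 FPKM (AN) acutely and at 1488 (SD) and 1618 (AN) chronically. The Rpl30 locus held 2.00% (SD) and 0.120% (AN) of such a sum acutely, and 1.34% and 0.0905% chronically. Another copy, Rpl30l1, was listed at 1.24 FPKM in acute SD and 1.36 in chronic SD rats and at 0 in both AN groups, so for this copy too the SD values were the higher ones.

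Summed over gene and named copies, both proteins had a log2FC within the range of the other genes. The Rps10 sum was 351 (SD) and 486 FPKM (AN) acutely (log2FC 0.47), and 328 and 376 chronically (0.20). The Rpl30 sum was 1445 and 1713 FPKM acutely (log2FC 0.25) and 1510 and 1619 chronically (0.10). For Rpl30 the sum was thus higher in AN rats in both phases, opposite to the gene's own locus. Acutely, AN minus SD was -26.9 FPKM at the gene's own locus and 295 FPKM over the copies. For Rps10 it was 64.0 FPKM at the locus and 70.8 over the copies acutely, and 47.9 and -0.27 chronically. How reads were divided between a gene and its copies in each strain was not tested, since the tables hold no reads.

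**Figure D3:**
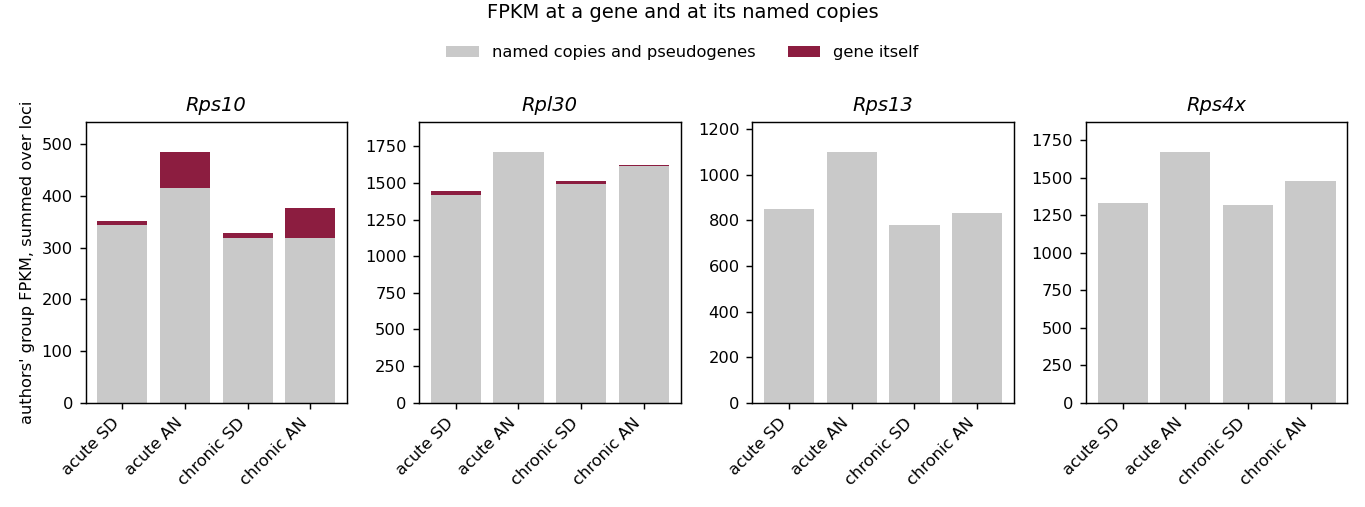
FPKM summed over the locus of a gene (dark) and its named copies and pseudogenes (grey) in the 4 groups, for Rps10, Rpl30, Rps13 and Rps4x, each on its own linear axis. The dark part is larger in AN rats for Rps10 and in SD rats for Rpl30, while the whole bars differ by 1.38-fold at most between strains, as in acute Rps10, and for Rps13 and Rps4x nearly the whole bar is grey.

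Some other genes also had less FPKM at their own locus than at copies. Among 32 genes with at least 1 named copy or pseudogene, the copies together had more FPKM than the gene in every group in 9, namely Rpl22, Rpl26, Rpl30, Rpl35a, Rpl36a, Rpl39, Rps10, Rps13 and Rps4x. For Rps20 and Rpl10a this held in both AN groups but in neither SD group, and the gene held between 41.6% and 54.2% of the sum. In Rpl30, Rpl36a, Rps13 and Rps4x they exceeded the gene more than 10-fold in every group. Rpl22 is among the 9 through Rpl22l1, a paralog with its own protein, since its other copy, Rpl22l2, was below the gene in every group. Rps13, which was near 1 FPKM at its own locus, has the pseudogene Rps13-ps10 of 527 bp at 849 (SD) and 1101 FPKM (AN) acutely and at 779 (SD) and 833 (AN) chronically. Rps4x, an X-linked 40S protein, was at 0.881, 1.31, 0.683 and 0.511 FPKM. Its pseudogene Rps4x-ps9 of 894 bp on chromosome 4, named by order only and perhaps carrying the parent's identifier, was at 1332, 1673, 1316 and 1478. Other low genes went the other way, with at least 95.2% of the sum at the gene for Rps18, 74.6% for Rps27a, 60.8% for Rpl9 and 56.7% for Rps28 in every group. Rpl36a was at 2.30, 3.02, 3.48 and 2.78 FPKM, and Rpl36al1 at 362, 463, 328 and 305. The sums over gene and copies were higher in AN rats for 31 of 32 genes acutely (median log2FC 0.32) and for 25 of 32 chronically (0.10), so the acute lean toward AN rats was also present when gene and copies were counted together.

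Of the 48 copies 21 passed the filter acutely and 20 chronically. Those copies had a median log2FC of 0.31 acutely and 0.10 chronically, beside 0.29 and 0.07 for the genes. Copies over 100 FPKM in every group numbered 6, among them Rpl30l2, Rpl36al1, Rps3l1, Rps23l1 and Rpl36l7. Rpl22l1 and Rpl7l1, which are paralogs with introns and their own proteins, were at 89.3 (SD) and 112 FPKM (AN) and at 48.8 and 59.0 FPKM acutely. Rpl39l1, whose human counterpart is best known from the testis, was at 0.583 (SD) and 2.51 FPKM (AN) acutely and at 0.927 (SD) and 1.79 (AN) chronically. Its acute FC was 4.30, at a level where 1 of the values lies below 1 FPKM. In all 34 copies were below 10 FPKM in every group, 18 were listed at 0 in at least 1 group, and 4, Rpl21l6, Rpl23al3 and Rpl35al8 among them, in all 4 groups. The other 14 were Rpl21l2, Rpl21l3, Rpl21l4, Rpl21l5, Rpl27l2, Rpl29l3, Rpl30l1, Rpl30l3, Rpl31l9, Rpl35al1, Rpl36Al2, Rpl36l1, Rpl37al2 and Rpl39l3, and beside Rpl30l1 each was below 1 FPKM in every group. No gene with a plain symbol was listed at 0.

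From the acute to the chronic phase most ribosomal protein genes were lower in both strains, and more so in AN rats. The 2 tables were normalized separately and hold different rats, which were older at sampling in the chronic phase, so these ratios are a description. In SD rats 40 of 46 genes had the lower value in the chronic phase, with a median log2 ratio of chronic to acute of -0.14, beside 0.01 over all genes, of which 51.4% were higher in the chronic phase. In AN rats 45 of 47 genes were lower, with a median of -0.31, beside 0.02 and 52.0%. Genes of at least 100 FPKM had a median of -0.04 in SD and -0.19 in AN rats, with 44.7% and 35.7% higher in the chronic phase, and mitochondrial ribosomal proteins had 0.10 and -0.15. Nothing among the genes reached 2-fold, which 6.73% of all genes in SD and 17.9% in AN rats did. The genes with the largest changes in SD rats were Rpl12 (log2 ratio 0.67) and Rpl36a (0.60), both higher in the chronic phase, followed by the copy Rps19l3 (-0.55). In AN rats they were Rps19 (from 19.6 to 10.2 FPKM, log2 ratio -0.94), Rps19l3 (-0.81) and Rps2 (from 226 to 133, -0.77).

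**Figure D4:**
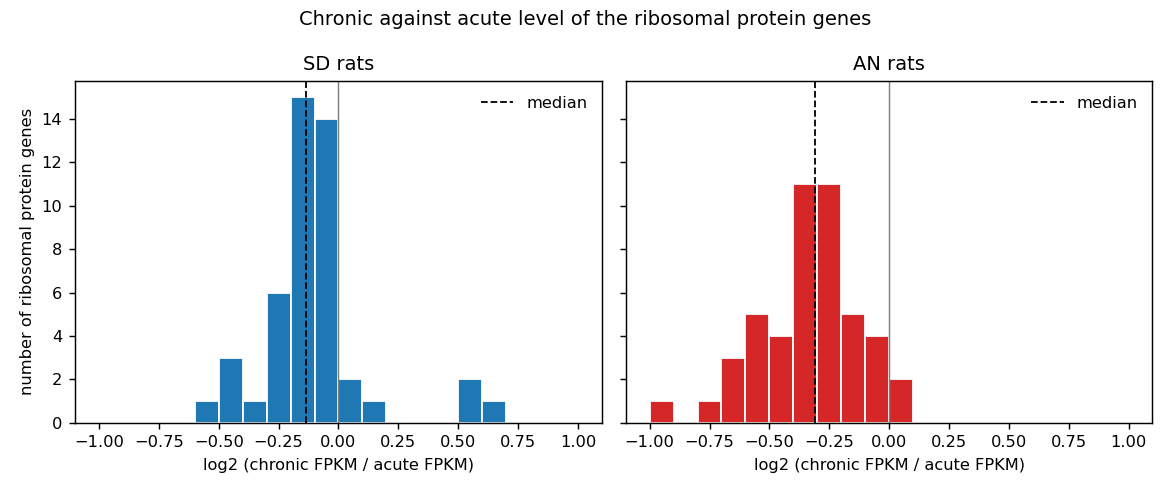
Number of ribosomal protein genes by the log2 ratio of chronic to acute FPKM in SD rats (left, 46 genes) and AN rats (right, 47 genes), with the median dashed. The medians lie at -0.14 and -0.31, and both distributions lie mostly left of zero.

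Other parts of the translation machinery were compared with the same measure. Of 4 listed genes for other parts of the ribosome, all 3 named here were higher in AN rats in both phases, with a median log2FC of 0.27 acutely and 0.20 chronically. Rack1, a scaffold on the 40S subunit, was at 635 (SD) and 807 FPKM (AN) acutely and at 505 (SD) and 584 (AN) chronically. Fau, which encodes a ribosomal protein fused to a ubiquitin-like protein, was at 229, 252, 218 and 224 FPKM. Of 48 ribosome biogenesis factors none passed 2-fold, 46 were higher in AN rats acutely (median 0.21) and 21 chronically (median -0.02). The nucleolar chaperone Npm1, the most abundant of these by the sum over groups, was at 107, 136, 84.5 and 81.7 FPKM. The 41 named mitochondrial ribosomal proteins, which serve the separate ribosomes of mitochondria, had medians of 0.06 and -0.12, with 30 and 8 of the 41 higher in AN rats.

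Among 7 elongation factors 6 were higher in AN rats in the acute phase (median 0.32, and 0.05 in the chronic phase). The exception was Eef1a2, the eEF1A form of neurons and muscle, at 49.9 (SD) and 2.80 FPKM (AN) acutely and at 47.7 (SD) and 6.09 (AN) chronically. Its counterpart in other cells, Eef1a1, was at 1503, 1667, 1425 and 1641. Of 23 initiation factors 18 were higher in AN rats acutely (median 0.14) and 16 chronically (0.03). The only factor past 2-fold was Eif5b, which joins the subunits, at 0.991 (SD) and 3.49 FPKM (AN) acutely and at 1.67 (SD) and 3.34 (AN) chronically, and no factor was 2-fold lower. None of 15 genes of translation control passed 2-fold. Their medians were 0.14 and 0.04, and Eif4ebp1, the mTOR target that holds back initiation, was at 68.0, 112, 50.4 and 65.5 FPKM.

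**Figure D5:**
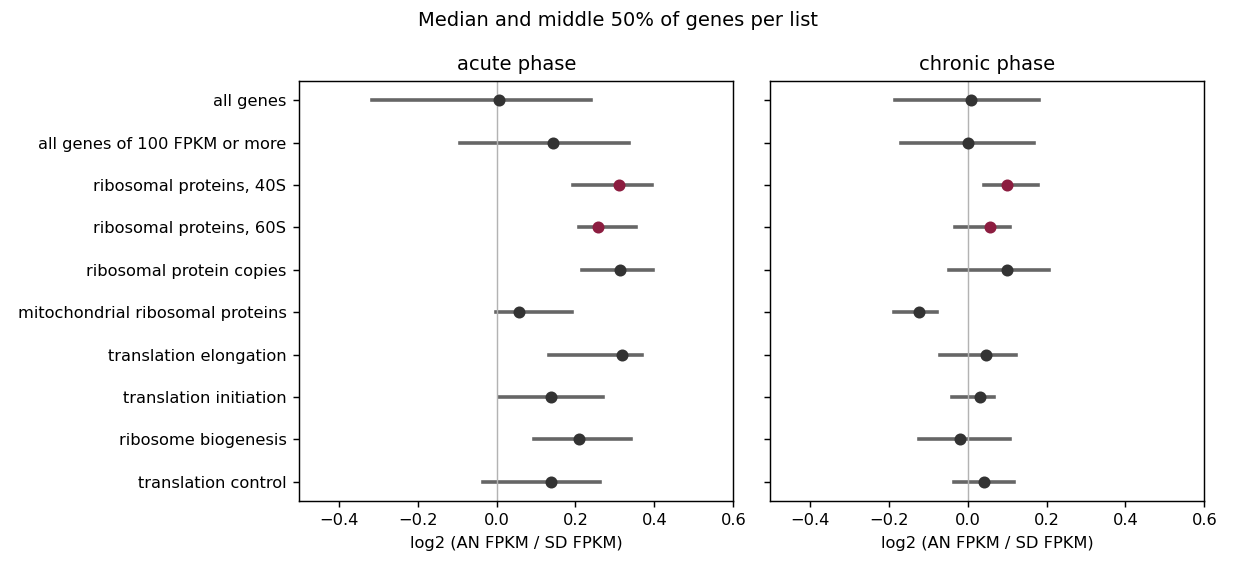
Median (point) and middle 50% of genes (line) of log2FC (AN against SD) for all genes, the ribosomal protein genes by subunit, their copies and the other lists, in the acute (left) and chronic (right) phase. In the acute phase the 40S (0.31) and 60S (0.26) medians lie above that of all genes (0.01), and in the chronic phase they lie at 0.10 and 0.06.

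Markers of cell types differed between strains in the same groups. All 10 named neuron markers were at least 2-fold lower in AN rats in the acute and 9 of 10 in the chronic phase, with sums of 1469 (SD) and 228 FPKM (AN) acutely and 1364 (SD) and 422 (AN) chronically. Of 9 macrophage and microglia markers 8 were higher in AN rats acutely and 5 chronically (Lyz2 was lower at both times, at 13.2 and 0.546 FPKM chronically), with sums of 6239, 10147, 3519 and 5472 FPKM. Most of the chronic gap between these sums was at Gpnmb (1967 and 3583 FPKM). All 9 cell cycle genes were higher in AN rats in the acute phase (sums of 225 and 349 FPKM), and 6 of 8 were in the chronic phase (141 and 154). All 7 fibroblast markers were higher in AN rats in both phases, with sums of 3870 and 6175 FPKM acutely and 1673 and 2477 chronically. The 7 oligodendrocyte markers were all lower in AN rats in the acute phase, with sums of 2760 and 1416 FPKM. Chronically 2 of 7 were higher in AN rats (median log2FC -0.39), and the sums of 2636 and 2675 FPKM were near each other through Cldn11 (848 and 1122). Among 5 astrocyte markers 1 (Gja1, at 210 and 229 FPKM) was higher in AN rats acutely. They summed to 6424 (SD) and 2325 FPKM (AN), mostly through Gfap (3957 and 1424). No chronic sum is given because Gfap, their defining gene, was listed at 0 in chronic SD rats, the only marker listed at 0 in any group. It was at 5824 FPKM in chronic AN rats, and the 0 need not mean that SD rats lacked it. Of the 4 astrocyte markers that passed the filter chronically 1 was higher in AN rats (median log2FC -0.21). Of 5 Schwann cell markers all were lower in AN rats acutely (sums of 1831 and 685 FPKM) and 3 were higher chronically (1682 and 1932). Of 3 endothelial markers 1 was higher acutely (77.2 and 82.2 FPKM) and all were higher chronically (76.4 and 122). Of the 9 T cell markers 6 were lower in AN rats acutely, and Cd2, Cd8a and Cd8b were higher. The 4 that did not pass the filter were all lower acutely, Cd3d at 0.798 (SD) and 0.189 FPKM (AN), Cd3e at 1.04 and 0.339, Cd247 at 0.569 and 0.142 and Cd5 at 0.445 and 0.124. Of the 5 that passed, 1 was higher in AN rats chronically. Cd3g, part of the T cell receptor complex, was at 2.74 (SD) and 0.531 FPKM (AN) acutely, and Cd8a at 76.0 and 199. The paper names NK cells and macrophages as other cells that carry Cd8a, and still proposes more cytotoxic T cells in AN rats. Which cells carried it here was not tested. The part that the makeup of cells had in the acute difference of the ribosomal protein genes was not tested.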

How the data were processed

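Polyadenylated RNA from the cord segments of 12 rats was sequenced by the authors as paired-end libraries, mapped, per the paper's methods and the submitters' processing notes, to RN4 with TopHat (version 1.5.0) and assembled with Cufflinks (version 0.0.6, quartile normalization). The strains were then compared at each time point with CuffDiff. The deposited tables, 1 for each phase, hold 1 FPKM per gene and group of 3 rats. Their columns of the authors' own comparison (log2 fold change, test statistic, P, Q and significance) were not used. Depth per gene is unknown and only 1 value stands for a group, so no test was run, and p-values and intervals are not given.

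Of 17423 rows, 4414 were named directly, from the study's gene list (1557) or RGD synonyms in the GRCr8 gene table (2857), and 7796 by locus length and order between named neighbours. Settings for this were chosen with accuracy in view: of 2175 names held out in 5 rounds, 1469 were named again, 98.5% rightly. This accuracy is over all genes and was not measured for the members alone. A name by order tells which GRCr8 gene lies at the place of a row. RN4 coordinates are counted from 1. Members and lists were chosen with earlier results of these data known.

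Ratios were computed with pandas 2.3.3 without a pseudocount, for genes with a mean of at least 1 FPKM. The counting and medians were tested on simulated data. Alternatives were pseudocounts, filters, centring on all genes, thresholds, and other sets of members. Genes named are members past 2-fold, Rps10 and Rpl30, the 5 highest and 5 lowest members, those nearest the threshold, the largest changes between phases, those listed at 0, and the leading genes of each list, and some of these are not reported here. Others, such as genes in groups described together, were added after their values were seen.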

Additional observations from a re-analysis of the deposited data

How the results depend on the processing

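No paired analysis was possible because the labels pair no rats and each group has a single value, and for the same reason no rat could be left out in turn. The medians moved by less than 0.1 (log2) under every alternative that was run, and no median changed direction. Without the filter on low values, 4 members were 2-fold higher and 5 lower in AN rats acutely, and 3 and 2 chronically, those added being below 1 FPKM on average. With a mean of at least 10 FPKM, with direct names only, without symbols ending in l or l1, or without Rps10 and Rpl30, 1 member was 2-fold higher in the acute phase. At 1.5-fold, 6 of 69 were higher acutely and 2 of 67 chronically, where 7.37% and 6.01% of all genes were. Without Rps10 and Rpl30 the count was 0 for acute lower, chronic higher, chronic lower and the same way in both phases. The next 3 settings were chosen after seeing the data. With plain symbols only, 1 member was higher in the acute phase. With a mean of at least 100 FPKM all 5 counts were 0. Summed with named copies and pseudogenes, 1 (Rpl39) was higher in the acute phase and the other 4 counts were 0. In a setting planned earlier, a pseudocount of 1, the log2FC was 1.15 for Rpl39l1, 3.24 for Rps10 and -3.29 for Rpl30 acutely, and 0.53, 2.48 and -3.11 chronically.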
